A study of Mus musculus with 2 samples.

Results

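The 47 genes described here encode proteins that copy and divide the genome, leaving out the replication-dependent histones. They were taken from a given list, and all 47 were among the 31053 genes of each count matrix. Of these, 21 act in S phase, 25 act in G2 and mitosis, and *Stmn1*, which encodes the microtubule-destabilizing protein stathmin, was placed in neither list. Their RNA was followed in droplet single-cell RNA sequencing (scRNA-seq) of tumor-infiltrating immune cells (TIIs) from B16-OVA tumors, a mouse melanoma line that makes ovalbumin. The study asked how creatine treatment changes these cells.

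The control library came from mice given PBS and titled nontreated, and the other from mice given creatine at 10.5 mg by intraperitoneal injection. The study's methods give wild-type C57BL/6J animals, male and 8 to 12 weeks old as the default for all experiments, and no allele or transgene separates the groups. Tumors were taken on day 14, 4 tumors were combined for each group, live CD45.2+ cells were sorted, and 10000 cells per group were loaded. The day and the number of tumors are those of the labels and of the study's scRNA-seq methods. Another passage of its methods gives another harvest day for this experiment, and its legends give another number of mice. The treatment field of the control label also names the creatine injection, and the group was taken from its title and its treatment value, PBS. Each group is 1 library, so no difference between groups could be tested, and every interval below covers counting error within these libraries only. UMIs of cell cycle genes sit in few cells and are not independent of each other, so the intervals on summed counts are too narrow.

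A cell that divides passes from G1 into S phase, where DNA is copied, and through G2 into mitosis, where the copies are parted. E2F transcription factors turn on the genes of replication at the G1 to S transition, and complexes that read CHR and CCAAT elements turn on the genes of mitosis later. In tumors, activated CD8 T cells and regulatory T cells (Tregs) are known to divide, as do some tissue macrophages and dendritic cell (DC) precursors, whereas circulating monocytes and neutrophils have mostly stopped. S phase transcripts therefore point to cells that enter S phase or are in it. G2 and mitosis transcripts point to cells later in the cycle. Phases named below are calls from transcripts, since DNA content was not measured.

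The sequence upstream of the start site differed between the lists in these elements. RefSeq (GRCm38.p6) gave promoter windows for 38 of the 47 members, 40 windows in all, and none for *Ccna2*, *Tpx2*, *Aurkb*, *Kif20a*, *Mcm4*, *Ccne2*, *Esco2*, *Gins2* and *Stmn1*. The 250 bases upstream of the start site were searched on both strands for E2F letters (TTTCGCGC, TTTGGCGC, TTTCCCGC or TTTGCCGC), for the CCAAT box (CCAAT) and for the CHR element (TTTGAA). E2F letters were in 8 of 19 S phase windows (42.1%), in 1 of 21 G2 and mitosis windows (4.76%) and in 1.86% of all 32851 windows. CHR letters were in 1 S phase window (5.26%), in 8 G2 and mitosis windows (38.1%) and in 15.99% of all windows. CCAAT letters were in 63.2%, 90.5% and 33.8%, respectively. A match describes letters and not a bound site. Shown here, with matches in capitals and chosen after their values were seen, are a pair of S phase promoters with E2F letters and a pair of mitotic promoters with a CHR element, each as the 250 bases upstream of the start site. They lie at chr1:191575545-191575794 on the minus strand (*Dtl*), chr1:128359706-128359955 on the minus strand (*Mcm6*), chr9:70421555-70421804 on the minus strand (*Ccnb2*) and chr14:46760291-46760540 on the plus strand (*Cdkn3*). In the GENCODE annotation the *Dtl* window overlaps the start of *Ints7* on the other strand, and the other 3 overlap no gene. In *Mcm6*, 2 of the E2F matches overlap.

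Dtl: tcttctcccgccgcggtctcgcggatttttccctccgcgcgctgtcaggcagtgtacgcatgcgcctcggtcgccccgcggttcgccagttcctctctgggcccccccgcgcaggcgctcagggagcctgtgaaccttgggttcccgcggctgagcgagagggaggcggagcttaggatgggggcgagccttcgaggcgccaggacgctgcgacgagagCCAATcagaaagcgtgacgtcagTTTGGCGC

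Mcm6: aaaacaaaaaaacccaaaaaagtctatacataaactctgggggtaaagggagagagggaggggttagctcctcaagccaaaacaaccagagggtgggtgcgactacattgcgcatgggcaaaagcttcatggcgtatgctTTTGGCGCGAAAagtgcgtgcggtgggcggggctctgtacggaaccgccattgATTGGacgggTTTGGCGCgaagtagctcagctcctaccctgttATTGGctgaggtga

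Ccnb2: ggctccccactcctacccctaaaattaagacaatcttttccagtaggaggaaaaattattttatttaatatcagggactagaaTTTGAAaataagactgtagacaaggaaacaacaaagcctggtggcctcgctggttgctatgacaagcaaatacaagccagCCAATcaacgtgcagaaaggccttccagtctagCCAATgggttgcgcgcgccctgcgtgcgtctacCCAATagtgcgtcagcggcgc

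Cdkn3: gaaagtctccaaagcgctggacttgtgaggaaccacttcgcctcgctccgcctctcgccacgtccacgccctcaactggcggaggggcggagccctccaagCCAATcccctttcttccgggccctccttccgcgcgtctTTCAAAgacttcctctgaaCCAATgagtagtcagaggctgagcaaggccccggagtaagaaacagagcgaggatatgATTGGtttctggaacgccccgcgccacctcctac

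After the study's filter (mitochondrial UMIs at most 25%), 7241 control cells with a median of 7688 UMIs and 6229 creatine cells with a median of 8475 UMIs were kept. Cells were sorted into classes by marker genes and named by likeness to a type. The CD8 T-like class held 2578 control and 2074 creatine cells, the Treg-like class 398 and 245, the NK-like class 717 and 1172, the monocyte/macrophage-like class 1556 and 1280, and the conventional DC (cDC)-like class 191 and 83. The CD8 T gate asked for a UMI of *Cd8a* or *Cd8b1*, so *Cd8a* in 96.1% and 96.9% of CD8 T-like cells largely follows from the gate. The macrophage gene *C1qa*, which that gate did not use, was also seen in 26.0% and 15.1% of them. The libraries shared 30 cell barcodes. All 47 members had at least 10 UMIs over both libraries in each of the 5 classes, the minimum set for the comparison.

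The members stood at quite different levels in the cell classes. Levels are counts per 1000000 UMIs (CPM) of a class, from 3' tags, so they are not divided by transcript length. In the control library, CD8 T-like cells held the highest level of 20 of the 25 G2 and mitosis genes, and Treg-like cells that of 17 of the 21 S phase genes. In the creatine library, CD8 T-like cells held the highest level of all 21 S phase genes and of 24 of the 25 G2 and mitosis genes. NK-like cells were lowest for 15 S phase and 22 G2 and mitosis genes in the control library. The median S phase gene stood at 72.9 CPM in control CD8 T-like cells, 80.0 CPM in Treg-like, 38.6 CPM in cDC-like, 21.7 CPM in monocyte/macrophage-like and 18.9 CPM in NK-like cells.

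**Figure D1:**
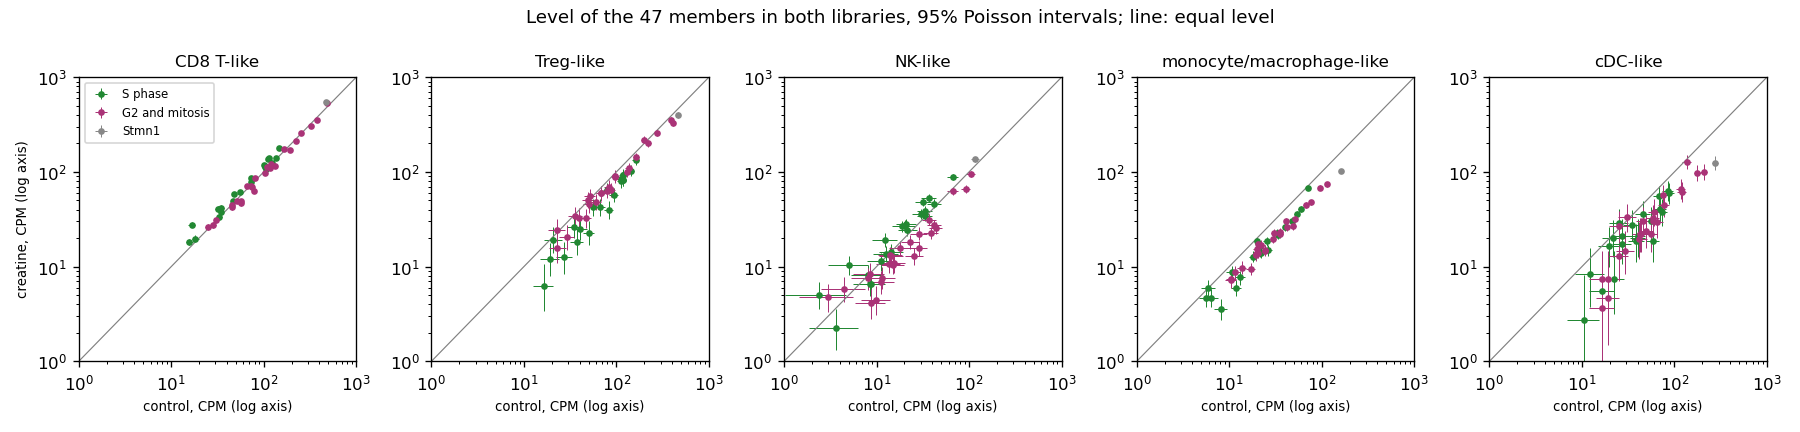
Level of each member in the control library (x axis, CPM, log scale) and the creatine library (y axis, CPM, log scale) in 5 cell classes, with 95% Poisson intervals; points are genes, green for S phase, purple for G2 and mitosis, gray for *Stmn1*. CD8 T-like points lie along the line of equal level, nearly all monocyte/macrophage-like points lie below it, and NK-like points fall on both sides.

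A cell was called dividing when it held at least 3 UMIs of the S list or at least 3 of the G2 and mitosis list after thinning to 2000 UMIs, so that deeper cells were not called more often. Over all classes, 28.1% of control cells (1865 of 6628) and 21.9% of creatine cells (1297 of 5931) were dividing. The difference of -6.27 percentage points had a 95% interval of -7.78 to -4.76. With the class shares of the control library, the creatine value would be 23.7%. Cells near the limit were many, since 723 control and 587 creatine cells held 2 UMIs of the higher list and 299 and 207 held 3. CD8 T-like cells made up 58.8% of all dividing control cells and 68.5% of all dividing creatine cells.

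CD8 T-like cells passed the call to a like extent in both libraries, while smaller shares of Treg-like and monocyte/macrophage-like cells passed it in the creatine library. In CD8 T-like cells the share was 43.6% (1096 of 2511) against 43.3% (888 of 2052), a difference of -0.37 points with an interval of -3.26 to 2.52. Treg-like cells gave 39.6% (147 of 371) against 27.8% (66 of 237), a difference of -11.8 points (-19.1 to -4.04). By cell cycle genes that are not members, the Treg-like shares lay closer together, as given below. The monocyte/macrophage-like share was 14.7% (226 of 1535) against 6.31% (80 of 1268), a difference of -8.41 points (-10.6 to -6.18). The intervals of both of these differences lay below 0, and that of CD8 T-like cells spanned it. For cDC-like cells the values were 27.0% (51 of 189) and 18.2% (14 of 77), with a difference of -8.80 points (-18.5 to 2.82) that could not be told from 0 at this depth. As a log2 ratio of shares this was -0.57 (-1.33 to 0.19), and with another random seed for the thinning -0.98 (-1.79 to -0.17), so 1 draw decides on which side of 0 this interval ends. NK-like cells gave 7.78% (53 of 681) and 7.26% (83 of 1144), a difference of -0.53 points (-3.16 to 1.90). Conventional CD4 T-like cells gave 20.8% (33 of 159) and 12.7% (25 of 197), with a difference of -8.06 points (-16.1 to -0.32). Member levels in this class did not follow the share, as 30 of the 47 log2 ratios of creatine to control were above 0 and 17 below. Summed over the members and with shallow cells kept in, the log2 ratio was 0.20 (0.12 to 0.28).

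Granulocyte-like cells, which should hold few dividing cells, give a background for the call. It was 6.25% (2 of 32, control) and 8.70% (2 of 23, creatine), with median depths of 2294 and 3058 UMIs against 9749 and 11826 in CD8 T-like cells. It rests on few cells, with exact intervals of 0.77% to 20.8% and 1.07% to 28.0%. Before thinning, *Kif23* held 13 UMIs in the creatine granulocyte-like cells, where no other gene of the lists held more than 2. In the control ones *Cenpa* held 25 UMIs and *Mki67* 13. In the creatine library the NK-like and monocyte/macrophage-like shares were below the granulocyte-like share, and the control NK-like share of 7.78% was close to it. Against this background these shares alone do not show division. Some genes the call did not use still differed. In NK-like cells that passed, G2 and mitosis genes that are not members summed to 4302 (control) and 3011 CPM (creatine). In the other NK-like cells they summed to 437 and 442 CPM. Cells of S alone, 21 of 53 and 51 of 83 that passed, held them at 637 and 809 CPM. Other S phase genes stood there at 1207 and 2212 CPM, against 613 and 652 CPM in cells that did not pass. The replication-dependent histones hardly differed, at 666 and 410 CPM against 562 and 458 CPM. The control monocyte/macrophage-like share of 14.7% was above the granulocyte-like share but inside its interval. So were the creatine shares of Treg-like (27.8%), cDC-like (18.2%) and conventional CD4 T-like cells (12.7%). The control CD4 T-like share (20.75%) lay at the upper end of the control interval. None of the 32 and 23 granulocyte-like cells reached 3 UMIs of the S list, which allows shares of up to 9.38% and 13.04%. B cell-like cells gave 0 of 19, which allows up to 15.8%, and 1 of 35 (2.86%). Nonclassical monocyte-like cells, a part of the monocyte/macrophage-like class, were also set as background. They gave 4.17% (4 of 96, 1.15% to 10.3%) and 1.41% (3 of 213, 0.29% to 4.06%). Both monocyte/macrophage-like shares and the creatine NK-like share lay above these intervals, and the control NK-like share lay inside.

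Without thinning, the shares were 71.9% and 76.2% in CD8 T-like, 60.1% and 55.9% in Treg-like, 23.8% and 30.6% in NK-like, 50% and 34.1% in monocyte/macrophage-like and 59.2% and 46.99% in cDC-like cells. All were higher than the thinned values, which are used here.

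**Figure D2:**
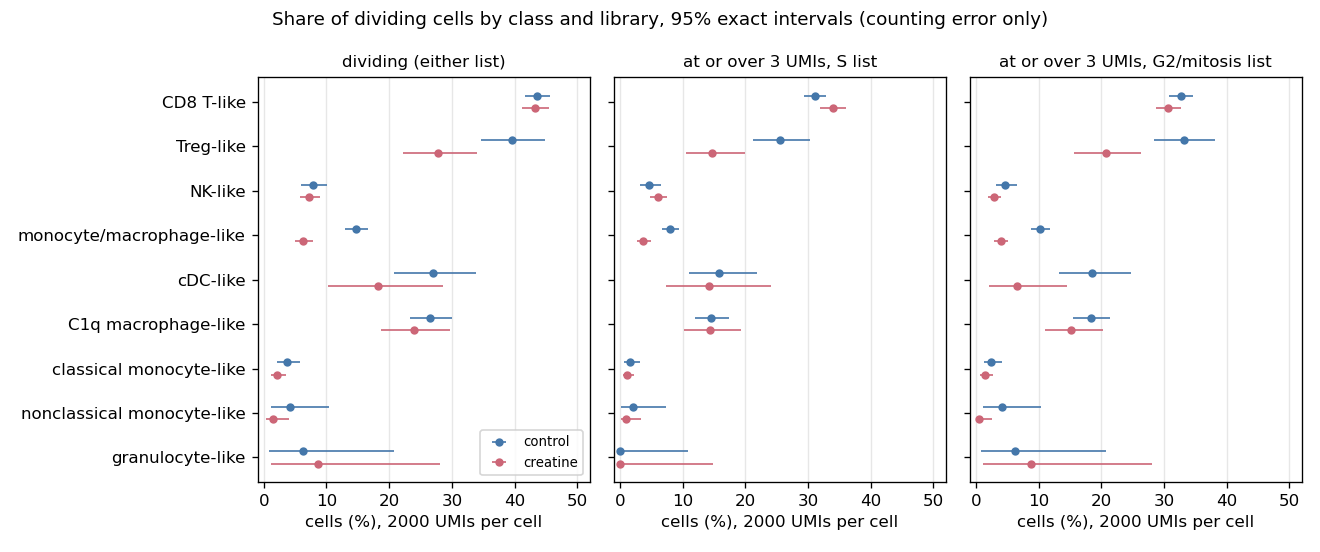
Share of cells (x axis, percent) called dividing by either list, by the S list and by the G2 and mitosis list after thinning to 2000 UMIs, per class (y axis) and library, with exact 95% binomial intervals. The intervals of the libraries overlap for CD8 T-like cells (43.6% and 43.3%) and stand apart for monocyte/macrophage-like cells (14.7% and 6.31%), whereas those of the C1q macrophage-like subset overlap.

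Among CD8 T-like cells called dividing by the members, those of G2 and mitosis alone took a smaller part in the creatine library. The total share hardly differed. At least 3 UMIs of the S list were held by 31.1% of control and 34.0% of creatine cells, a difference of 2.86 points (0.13 to 5.60). Cells with G2 and mitosis UMIs alone were 12.5% and 9.31%, a difference of -3.24 points (-5.03 to -1.42). As shares of the dividing cells, S alone took 25.1% and 29.1%, both lists 46.2% and 49.4%, and G2 and mitosis alone 28.7% and 21.5%. Among dividing cells, the exact intervals of S alone overlapped (22.5% to 27.8% and 26.1% to 32.2%). Those of G2 and mitosis alone did not (26.1% to 31.5% and 18.8% to 24.4%). The intervals of both differences above, which are of shares of the class, left out 0, narrowly for the S list. The differences for S alone (1.62 points, -0.25 to 3.52) and for at least 3 G2 and mitosis UMIs (-1.99 points, -4.70 to 0.72) had intervals that spanned 0. In this class 293 control and 215 creatine cells stood just below the limit, with 2 UMIs, and 137 and 107 stood at 3. A call from cell cycle genes that are not members, described below, showed much less of this shift. By it, G2 and mitosis alone took 9.996% and 9.41% of the class, S alone 15.3% and 17.0%, and both 31.0% and 30.1%.

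Every S phase gene was at a slightly higher level in creatine CD8 T-like cells. All 21 ratios were above 0 on the log2 scale, from 0.00 to 0.74, with a median of 0.15 against 0.03 over the 13706 genes tested, and 16 had an interval above 0. Summed over the list, the level was 1526 CPM (control) and 1727 CPM (creatine), with a ratio of 0.18 (0.16 to 0.20). Of the G2 and mitosis genes, 9 ratios were above 0 and 16 below, 12 of them with an interval below 0, with a median of -0.08. Their summed level was 3316 and 3242 CPM, a log2 ratio of -0.03 (-0.04 to -0.02). A rule of size was set at a log2 ratio of 0.5 with an interval that leaves out 0. Of the members, 1 passed it upward, where 4.51% of all genes did, and 0 downward, where 5.79% did; with 1 library per group no test stands behind these counts.

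The gene past the rule was *Ccne2*, an E-type cyclin that drives entry into S phase. Its level was 16.7 CPM (control) against 27.8 CPM (creatine), or 0.74 as a log2 ratio (0.58 to 0.89). The other E-type cyclin, *Ccne1*, followed at 32.0 and 40.9 CPM (0.36), and the replicative helicase subunits *Mcm7* at 111 and 137 CPM (0.30) and *Mcm2* at 48.0 and 58.9 CPM (0.30). *Rrm2*, the regulatory subunit of ribonucleotide reductase, stood at 114 and 140.0 CPM (0.30). All 9 genes of replication licensing and origin firing had an interval above 0, with a median of 0.21, and *Mcm6* held the most UMIs of them, at 148 and 177 CPM (0.26). The sliding clamp *Pcna* stood at 102 and 117 CPM (0.20).

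On the mitotic side the lowest ratio was that of *Cdc20*, an activator of the anaphase-promoting complex, with 79.0 and 62.7 CPM (-0.33, -0.42 to -0.25). Below 0 too were *Kif23*, a kinesin of cytokinesis, with 56.2 and 46.5 CPM (-0.27), the phosphatase *Cdkn3* with 56.9 and 49.0 CPM (-0.21), the kinetochore gene *Cenpf* with 194 and 172 CPM (-0.17) and the B-type cyclin *Ccnb2* with 131 and 116 CPM (-0.17). Not all mitotic genes shared this direction. The topoisomerase *Top2a*, the most abundant of the list in the control library, stood at 484 and 535 CPM (0.14, 0.11 to 0.18), and *Ube2c*, the ubiquitin-conjugating enzyme of the anaphase-promoting complex, at 249.9 and 257 CPM (0.04). Below 0 but nearer to it were *Mki67*, the Ki-67 proliferation antigen, at 377 and 354 CPM (-0.09), and the centromere histone *Cenpa* at 324 and 304 CPM (-0.09). The survivin gene *Birc5* lay there too, at 225 and 213 CPM (-0.08). *Stmn1*, which is in neither list, stood at 477 and 549 CPM (0.20).

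**Figure D3:**
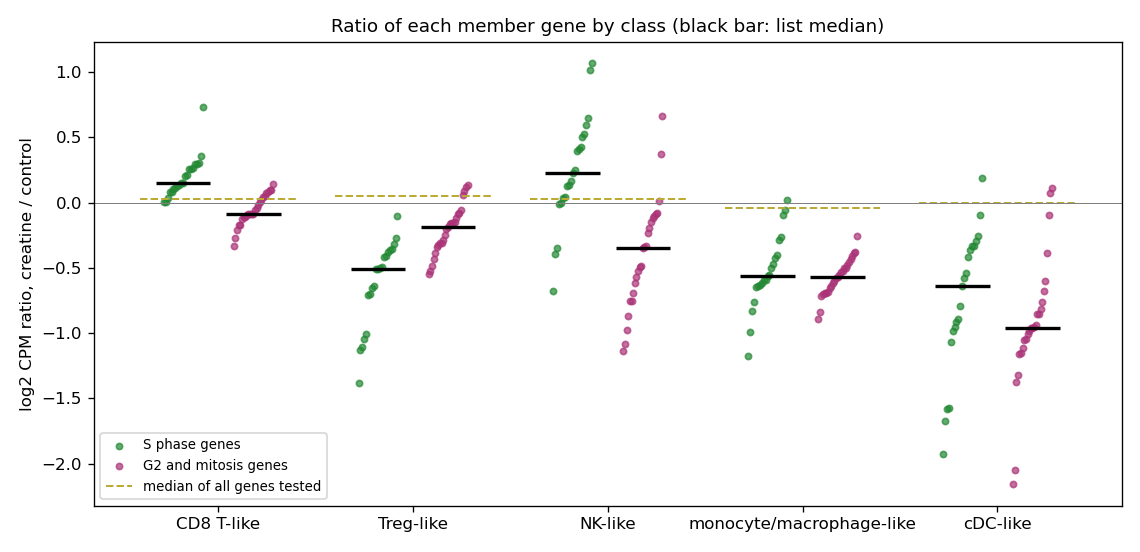
Log2 CPM ratio of creatine to control (y axis) for each S phase gene (green) and each G2 and mitosis gene (purple) in 5 cell classes (x axis), ordered by value within a list; black bars are list medians and dashed lines the median of all genes tested. S phase medians lie above 0 in CD8 T-like (0.15) and NK-like cells (0.22) and below it in Treg-like (-0.51), monocyte/macrophage-like (-0.56) and cDC-like cells (-0.64).

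A sum over a class mixes how many cells divide with how much RNA each holds. Cells were therefore called dividing from 45 other S phase genes and 62 other G2 and mitosis genes, none of them a member, at the same limit. In CD8 T-like cells this call passed more cells than that of the members, which passed 1096 and 888. Levels in such cells thus still depend on which cells passed. In the 1413 control and 1158 creatine CD8 T-like cells so called, the S list summed to 1947 and 2220 CPM, a log2 ratio of 0.19, and the G2 and mitosis list to 4401 and 4358 CPM, a ratio of -0.01. Cells so called held 93.7% and 93.3% of the S list UMIs of the class, leaving out cells too shallow to thin, and 97.4% and 97.6% of its G2 and mitosis UMIs. Across cells, the S list count went with that of the other S phase genes (Spearman 0.64 and 0.67 over 2511 and 2052 cells, which share a library and a thinned depth) and less with that of the G2 and mitosis list (0.47 in the control library).

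The same split, made after the data had been seen, compares the level of each member between the phases of CD8 T-like cells. By the other genes, 383 control and 348 creatine cells passed on the S list alone, 251 and 193 on the G2 and mitosis list alone, and 779 and 617 on both. Cells in both, which the ratios below leave out, held the highest level of 18 (control) and 17 (creatine) of the 21 S phase genes. They also held that of 15 and 16 of the 25 G2 and mitosis genes. The level in G2 and mitosis cells against S cells ran, on the log2 scale, from -2.94 and -3.32 for *Ung*, which removes uracil from DNA, to 6.26 and 5.82 for *Cenpf*. *Cdc6*, which loads the helicase onto origins, lay at -2.53 and -3.14, *Ccne2* at -2.39 and -2.14, and the spindle gene *Aspm* at 4.75 and 5.16. The order ran broadly from genes of origin licensing and repair to those of the spindle and the kinetochore. A few S list genes did not separate S alone from G2 and mitosis alone, as *Rrm2* lay at 0.18 and 0.30. *Esco2*, which joins sister chromatids behind the fork, lay at 1.11 and 2.53, on the side of G2 and mitosis, from 22 and 28 control UMIs. In control cells of both, *Rrm2* stood at 203 CPM and *Esco2* at 65.3 CPM. In S alone they stood at 35.9 and 4.54 CPM, and in G2 and mitosis alone at 40.7 and 9.82 CPM. *Stmn1* lay at 0.99 and 0.85. All 25 genes of the G2 and mitosis list lay above 0 in both libraries.

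**Figure D4:**
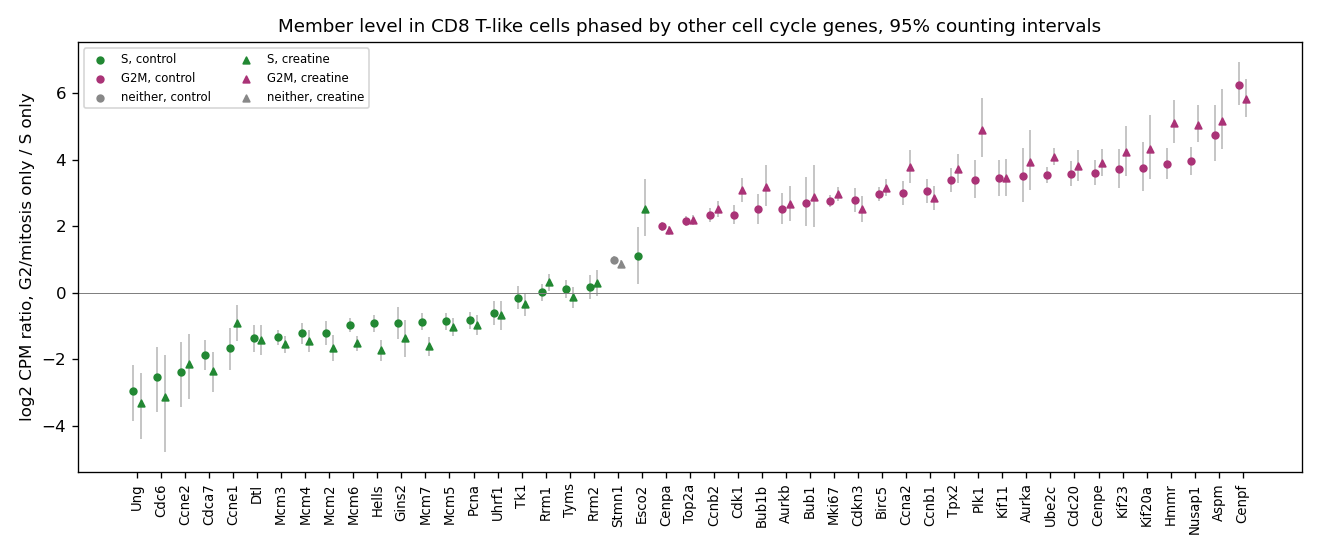
Log2 ratio of the level in cells of G2 and mitosis alone to that in cells of S alone (y axis), for each member (x axis, ordered by the control value) in CD8 T-like cells phased by genes that are not members; circles are control, triangles creatine, bars 95% counting intervals. S phase genes run from -2.94 for *Ung* upward in the control library, and G2 and mitosis genes reach 6.26 for *Cenpf*.

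Dividing CD8 T-like cells differed from the others of the class in genes the call did not use. Their median depth was 17480 UMIs (control) and 20970 (creatine), against 7480 and 8751 in the other cells. The glycolysis list summed to 7979 and 7687 CPM in dividing cells and to 5714 and 5165 CPM in the others. Genes of naive and memory T cells were lower in dividing cells, at 85.2 and 63.2 CPM against 285 and 382 CPM, among them *Tcf7*, a factor of memory cells, at 7.92 and 8.08 CPM against 42.9 and 64.4 CPM. Genes of cytotoxicity and cytokines summed to 6993 and 10475 CPM in dividing and to 10065 and 17059 CPM in other cells, higher in the creatine library on both sides. Single genes of that list went other ways, since the granzyme *Gzmb* was higher in dividing cells (1539 and 1649 CPM against 1201 and 1245 CPM), and the interferon *Ifng* was higher in dividing control cells (327 against 299 CPM) and lower in dividing creatine cells (493 against 716 CPM). The replication-dependent histones, made in S phase, summed to 6526 CPM in dividing control cells and to 3390 CPM in dividing creatine cells, although the S list was higher there; this was so in cells of S alone (1398 and 685 CPM), of both lists (8632 and 4417 CPM) and of G2 and mitosis alone (5983 and 3486 CPM). Of the dividing cells, 39.0% and 29.1% held at least 2 markers of another lineage, against 22.5% and 19.2% of the others. Here and in the other classes these markers were counted before thinning, where deeper cells can hold more of them. The part of depth was not tested. The part of such cells in these values was not tested beyond leaving them out, which gave a histone log2 ratio of -0.99. Summed over a whole class, the histones were also lower in creatine Treg-like (log2 ratio -0.96), NK-like (-0.45), cDC-like (-1.66) and conventional CD4 T-like cells (-0.11). Single histone genes did not all follow the sums. In NK-like cells 25 were above 0 and 23 below (median 0.03), and in Treg-like cells 20 and 34 (-0.25). The counts were 3 and 36 in cDC-like (-1.36) and 23 and 11 in CD4 T-like cells (0.61). Monocyte/macrophage-like cells phased by the genes that are not members held the histones at 385 and 276 CPM in S alone. The values were 4208 and 2382 CPM in cells of both, 1256 and 456 CPM in G2 and mitosis alone, and 276 and 286 CPM in cells of neither. How fully 3' tags capture histone RNA was not tested.

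In Treg-like cells the S phase genes were lower in the creatine library without exception, and the G2 and mitosis genes less so. All 21 S phase ratios were below 0, with a median of -0.51 against 0.05 over the 10915 genes tested, and 10 passed the rule of size. With *Plk1* from the other list, 11 of the 47 members passed it downward, where 4.79% of all genes did, and 0 upward, where 6.68% did. The S list summed to 1627 and 1139 CPM (log2 ratio -0.51, -0.58 to -0.45), and the G2 and mitosis list to 2917 and 2570 CPM (-0.18, -0.23 to -0.14), with a median of -0.19.

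The lowest Treg-like ratio was that of *Cdc6*, with 64 and 14 UMIs, or 16.4 and 6.29 CPM (-1.38, -2.33 to -0.53). *Dtl*, which marks the licensing factor Cdt1 for destruction, stood at 50.1 and 22.9 CPM (-1.13), *Ccne1* at 27.1 and 12.6 CPM (-1.11), the thymidine kinase *Tk1* at 82.6 and 40.0 CPM (-1.05) and *Cdca7*, a cofactor of the chromatin remodeler encoded by *Hells*, at 37.1 and 18.4 CPM (-1.01). More abundant genes of the list were nearer to 0, with *Mcm6* at 161 and 134 CPM (-0.27), *Pcna* at 111 and 83.5 CPM (-0.41) and *Rrm1* at 117 and 83.1 CPM (-0.50). Of the mitotic kinases, *Plk1* stood at 46.5 and 32.3 CPM (-0.53, -0.94 to -0.12). The highest ratios were those of *Ube2c*, at 200.2 and 219.6 CPM (0.13), and the spindle motor *Kif11*, at 51.4 and 55.7 CPM (0.12), both with intervals that span 0. *Mki67* stood at 411 and 331 CPM (-0.31), *Ccnb2* at 131 and 101 CPM (-0.39) and *Cenpa* at 274 and 259 CPM (-0.08).

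The phases of dividing Treg-like cells shifted as well. Cells with both lists were 19.1% (control) and 7.59% (creatine) of the class, a difference of -11.5 points (-16.6 to -6.04). Cells of G2 and mitosis alone were 14.0% and 13.1%, and cells of S alone 6.47% and 7.17%. Cells with at least 3 UMIs of the S list were 25.6% and 14.8% (-10.8 points, -17.0 to -4.26). For the G2 and mitosis list these shares were 33.2% and 20.7% (-12.5 points, -19.3 to -5.23). The other genes called 190 of 371 and 106 of 237 cells dividing, shares closer together than those of the member call (147 and 66 cells). In these cells the log2 ratio of the S list was -0.30 and that of the G2 and mitosis list 0.07. Since more cells passed than by the members, these ratios also depend on which cells passed. They do not give RNA per dividing cell alone. Only 10 cells held 25.2% of control and 45.0% of creatine G2 and mitosis UMIs. At least 2 markers of another lineage were held by 37.4% of dividing control cells and 16.7% of dividing creatine cells, and without such cells the share ratio of dividing cells was -0.28 (log2, -0.68 to 0.13), so the difference could not then be told from 0. The median of the G2 and mitosis genes then was 0.15, with 7 members past the rule downward. With the gate counted on thinned UMIs it was -0.91, with 29 members downward, so the size and sign of the mitotic ratios depend on which cells count as Treg-like.

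NK-like cells held S phase genes at higher and mitotic genes at lower levels in the creatine library. Of the S phase genes 16 ratios were above 0, with a median of 0.22 against 0.03 over the 11317 genes tested, and of the G2 and mitosis genes 22 were below 0, with a median of -0.35. In all, 4 members passed the rule of size upward, where 3.18% of all genes did, and 8 downward, where 4.71% did. The upward genes were *Ung*, with 17 and 78 UMIs (5.10 and 10.3 CPM, log2 ratio 1.02), *Dtl* at 12.3 and 19.3 CPM (0.65), *Pcna* at 31.8 and 48.0 CPM (0.59) and *Mcm7* at 36.6 and 52.8 CPM (0.53). Close to the rule were *Tyms*, thymidylate synthase, at 18.9 and 26.7 CPM (0.50, 0.08 to 0.93), and *Mcm6* at 66.3 and 89.1 CPM (0.43).

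Of the 8 downward genes, *Aspm* had 33 and 34 UMIs, or 9.90 and 4.50 CPM (-1.14, -1.87 to -0.40). The mitotic kinase *Aurka* stood at 8.70 and 4.10 CPM (-1.09), the A-type cyclin *Ccna2* at 25.5 and 12.96 CPM (-0.98), *Ccnb2* at 28.5 and 15.6 CPM (-0.87), the spindle gene *Nusap1* at 38.4 and 22.7 CPM (-0.76) and *Cenpf* at 43.5 and 25.8 CPM (-0.75). The others were *Cdkn3* (-0.69) and *Ube2c* (-0.62). *Top2a*, at 104 and 95.5 CPM (-0.12), and *Mki67*, at 66.9 and 62.9 CPM (-0.09), had intervals that span 0.

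The levels of NK-like cells rested on few cells. Of the G2 and mitosis UMIs, 63.2% of control and 51.997% of creatine counts came from 10 cells. The share that passed the call was close to or below the granulocyte-like background. Of the cells that passed, S alone was 39.6% (21 of 53) and 61.4% (51 of 83), and G2 and mitosis alone 39.6% and 16.9%. Markers of another lineage were held by 28.3% of the dividing control and 39.8% of the dividing creatine cells, against 23.4% and 21.7% of the others, and their part was not tested beyond leaving such cells out. Without them the median of the G2 and mitosis genes was -0.82, and with the gate counted on thinned UMIs it was 0.11, so the direction of the mitotic genes depends on which cells count as NK-like. The median of the S phase genes kept its sign, between 0.03 and 0.25 over 10 alternatives.

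In monocyte/macrophage-like cells nearly all members were lower in the creatine library. Of the 47 ratios 46 were below 0, and 31 members passed the rule of size downward, 12 of the S list, 18 of the G2 and mitosis list and *Stmn1*, where 9.14% of all genes did. None passed it upward, where 7.67% of all genes did. The medians were -0.56 and -0.57 against -0.04 over the 12937 genes tested, and the intervals of all 25 G2 and mitosis genes were below 0. The S list summed to 555 and 395 CPM (-0.49), and the G2 and mitosis list to 905 and 599.5 CPM (-0.59).

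The lowest were *Ung*, at 8.08 and 3.58 CPM (-1.17, -1.61 to -0.75), *Cdca7*, at 11.9 and 5.97 CPM (-0.995), *Cenpf*, at 49.4 and 26.6 CPM (-0.89), *Kif11*, at 17.0 and 9.499 CPM (-0.84), and *Mcm2*, at 26.5 and 14.8 CPM (-0.83). *Stmn1* stood at 162 and 103 CPM (-0.65), *Mki67* at 115 and 73.9 CPM (-0.64), *Cenpa* at 76.7 and 47.8 CPM (-0.68) and *Birc5* at 67.0 and 44.8 CPM (-0.58). Some genes of S phase hardly differed. *Pcna*, which also serves DNA repair, stood at 70.3 and 67.6 CPM (-0.06, -0.17 to 0.06), *Rrm2* at 19.8 and 18.5 CPM (-0.09) and *Ccne2* at 5.91 and 5.97 CPM (0.02).

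This difference went along with another make-up of the class. Cells with C1q macrophage markers were 45.0% (control) and 19.8% (creatine) of the class, classical monocyte-like cells 32.0% and 49.0%, and nonclassical monocyte-like cells 6.17% and 16.7%. Of the C1q macrophage-like cells, 26.6% (184 of 693) and 23.9% (60 of 251) were dividing, a difference of -2.65 points (-8.58 to 3.82), with median depths of 15738 and 23962 UMIs. The creatine share was above the granulocyte-like background but inside its interval. Of the classical monocyte-like cells, 3.64% and 2.09% passed the call, and of the nonclassical ones 4.17% and 1.41%, all below the granulocyte-like background. The cells of the class that passed the call were thus mostly C1q macrophage-like in both libraries. With the subset shares of the control library, the creatine share would be 11.9% in place of 6.31%, against 14.7% in the control library.

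Within C1q macrophage-like cells the members were close to equal. The S phase median was -0.12 and that of G2 and mitosis -0.01. *Mki67* stood at 159 and 158 CPM (-0.01) and *Top2a* at 128 and 143 CPM (0.15). *Ung*, at 11.5 and 6.81 CPM (-0.75), and *Cdca7*, at 16.8 and 9.35 CPM (-0.85), were lower here too, while *Pcna*, at 85.5 and 111 CPM (0.38, 0.24 to 0.52), and *Ccne2*, at 8.23 and 12.5 CPM (0.60, 0.16 to 1.04), were higher. Of the cells of the whole class that passed the call, 56.6% and 63.8% held at least 2 markers of another lineage, against 32.4% and 27.4% of the others. Without such cells the share ratio was -1.62 on the log2 scale, against -1.22 with them. With the gate counted on thinned UMIs, the medians over the class were -0.28 and -0.21, and 5 members passed the rule downward.

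**Figure D5:**
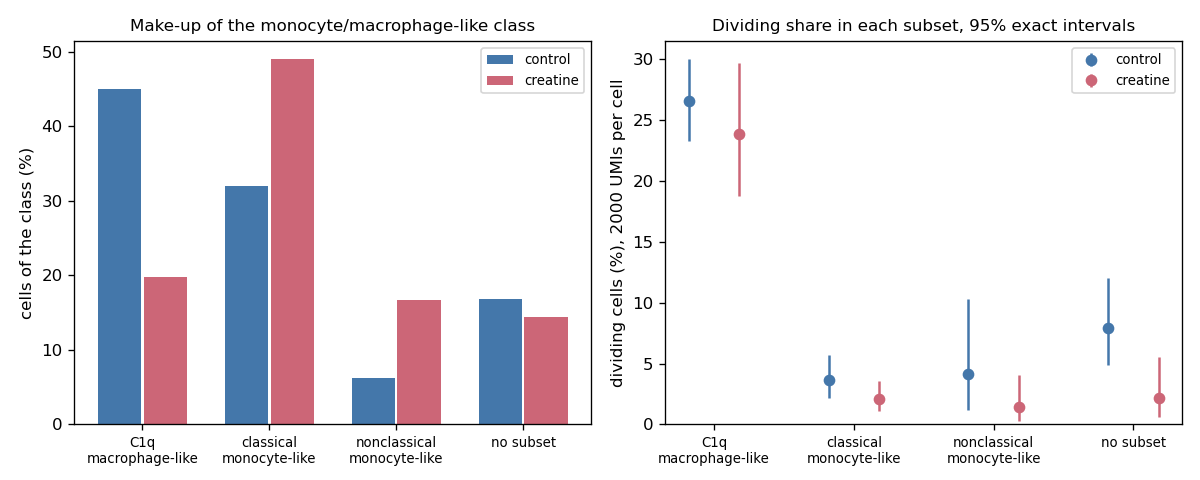
Left, share of the monocyte/macrophage-like class (y axis, percent) in each marker subset (x axis) and library; right, share of dividing cells in each subset (y axis, percent, thinned to 2000 UMIs) with exact 95% intervals. C1q macrophage-like cells are 45.0% of the control and 19.8% of the creatine class, while their dividing share is 26.6% and 23.9%.

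The cDC-like class was small, and its members were lower in the creatine library. The medians were -0.64 for S phase and -0.96 for G2 and mitosis, against 0.00 over the 10028 genes tested. Downward, 33 members passed the rule of size, 11 of the S list, 21 of the G2 and mitosis list and *Stmn1*, where 5.79% of all genes did, and 0 passed upward, where 5.85% did. The lowest with at least 50 UMIs were *Aspm*, with 51 and 5 UMIs (19.1 and 4.61 CPM, -2.05, -3.73 to -0.73), *Rrm2*, with 157 and 20 UMIs (58.8 and 18.4 CPM, -1.67), *Esco2*, with 59 and 8 UMIs (-1.58), *Ung*, with 44 and 6 UMIs (-1.57), and *Aurka*, with 51 and 8 UMIs (-1.37). *Top2a* stood at 208 and 100.5 CPM (-1.05), *Mki67* at 177 and 97.7 CPM (-0.86) and *Stmn1* at 274 and 124 CPM (-1.14). At the other end were *Mcm2*, at 25.1 and 28.6 CPM (0.19), *Cdc20*, at 30.7 and 33.2 CPM (0.11), and *Ube2c*, at 136 and 127 CPM (-0.10), all with intervals that span 0.

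These sums came from few cells, since 10 cells held 92.6% of the G2 and mitosis UMIs of the creatine library. Cells with at least 3 UMIs of the G2 and mitosis list were 18.5% of control (35 of 189) and 6.49% of creatine cDC-like cells (5 of 77), a difference of -12.0 points (-19.2 to -2.80), and the creatine value did not exceed the granulocyte-like background. Cells with at least 3 UMIs of the S list, whatever the other list held, were 15.9% and 14.3%, and cells of S alone 8.47% and 11.7%, with both differences' intervals spanning 0. The fraction of dividing cells was 42.0% (29 of 69) and 34.5% (10 of 29) in cDC1-like and 21.6% (16 of 74) and 7.14% (2 of 28) in cDC2-like cells, the last below the granulocyte-like background. In cells called dividing by the other genes, 57 and 17 of them, the lists had log2 ratios of -0.55 and -0.30. With the gate counted on thinned UMIs, 21 members passed the rule downward.

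In the cell cycle genes that are not members, the medians had the sign of the members' medians in every class and list but G2 and mitosis in CD8 T-like cells. The medians of the 45 other S phase genes were 0.14 in CD8 T-like, -0.44 in Treg-like, 0.20 in NK-like, -0.43 in monocyte/macrophage-like and -0.84 in cDC-like cells. Those of the 62 other G2 and mitosis genes were 0.01, -0.21, -0.25, -0.50 and -1.21 in the same order. In CD8 T-like cells 0 of the 45 and 0 of the 62 passed the rule of size, where 4.51% of all genes did upward and 5.79% downward. In Treg-like cells 16 of the 45 and 9 of the 62 passed it downward, where 4.79% of all genes did, and 0 and 2 upward, where 6.68% did. In NK-like cells the ligase *Lig1*, which joins Okazaki fragments, stood at 22.8 and 45.5 CPM (1.00, 0.63 to 1.37) and the origin recognition gene *Orc6* at 15.3 and 29.4 CPM (0.94).

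Genes of G1 and of exit from the cycle had directions of their own. *Klf2*, a factor of resting T cells, had a higher level in the creatine library in CD8 T-like cells (20.0 and 51.1 CPM, 1.35), Treg-like cells (21.5 and 74.5 CPM, 1.80), NK-like cells (108 and 191 CPM, 0.82) and monocyte/macrophage-like cells (99.7 and 249 CPM, 1.32). The D-type cyclin *Ccnd2* stood at 414 and 695 CPM in NK-like cells (0.75) and at 397 and 616 CPM in cDC-like cells (0.63). In Treg-like cells the cyclin-dependent kinase *Cdk4* stood at 97.2 and 64.2 CPM (-0.60), the inhibitor *Cdkn1a* at 52.4 and 31.4 CPM (-0.74) and the antiproliferative gene *Btg2* at 57.8 and 109 CPM (0.91). Of the 25 genes of this list, 6 passed the rule upward and 2 downward in Treg-like cells, where 6.68% and 4.79% of all genes did.

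Some member counts may include reads of other genes. The last 500 bases of 26 members share a run of 50 bases with transcripts of other genes, and 7 members overlap a gene on the same strand (*Kif11*, *Mcm7*, *Nusap1*, *Rrm1*, *Stmn1*, *Top2a* and *Tpx2*), so their levels are less certain than those of genes such as *Ccnb2* and *Cdkn3*, for which neither was found.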

How the data were processed

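Per the labels, reads were aligned and counted by the authors in Cell Ranger 3.0.2 on mm10, who deposited raw UMI counts per gene and cell for each library, with no normalization; the annotation release is not given in the sources used here. Cells were kept with at least 300 UMIs, 100 genes and at most 25% mitochondrial UMIs, which left out 408 control and 274 creatine barcodes. These limits are the study's, whose text says that 1 cell failed its filter, so the deposited matrices may not be those it filtered. Control depth was 79319769 and creatine depth 72091124 UMIs after the filter.

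Classes were gated on 98 marker genes per cell. The smallest number of marker genes with a UMI for each gate (3 for T, NK and cDC, 5 for monocyte/macrophage) was set after the marker distributions had been seen. Counts were summed per class and library to CPM. Ratios carry exact conditional binomial intervals, levels Poisson, shares Clopper-Pearson, share differences Newcombe and share ratios Katz intervals, all at 95%. No test was possible with 1 library per group. Cells were thinned to 2000 UMIs for shares, and shallower cells left out, 613 control and 298 creatine. Scrublet (scanpy 1.11.5) called 2 and 8 doublets, a failed call, and no cell was removed on it. The 6% of cells with the highest scores (434 and 374) were left out in an alternative.

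Named genes were, per class, the member with the most UMIs in each role list and the 5 highest and 5 lowest ratios among members with at least 50 UMIs, and of other cell cycle lists the 2 highest and 2 lowest with at least 100 UMIs; other members named were chosen after their values were seen. The members and lists were chosen with earlier results of these data known. Analyses used Python 3.11.15, numpy 2.4.6, scipy 1.17.1, pandas 2.3.3 and, for TMM scaling, edgeR 4.0.16 in R 4.3.3, and were tested on simulated data. Positions and promoter windows came from GENCODE and RefSeq annotations of GRCm38.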

Additional observations from a re-analysis of the deposited data

How the results depend on the processing

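No paired analysis was possible because each group is 1 library. Of 53 alternative values of the share ratio of dividing cells 48 stayed within the counting interval of the main value, of 51 for the S phase medians 49, of 51 for the G2 and mitosis medians 42, and of 46 counts of members past the rule of size 42 upward and 39 downward stayed within 1.5 times. In CD8 T-like cells, where intervals are narrow, 5 of 8 values of the summed S list and 3 of 8 of the summed G2 and mitosis list stayed within theirs, and in dividing cells 8 of 11, 6 of 11 and, for histones, 7 of 11. Medians of the G2 and mitosis genes changed sign in Treg-like and NK-like cells under 1 alternative each, and the NK-like share ratio of -0.10 (-0.58 to 0.38) did under a limit of 5 UMIs. The cause of the other shifts was not tested. All values here are log2 ratios or counts of members.

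With the gate counted on thinned UMIs, the share ratio was -0.82 in monocyte/macrophage-like cells, the G2 and mitosis median was -0.91 in Treg-like, 0.11 in NK-like and -0.21 in monocyte/macrophage-like cells, where the S phase median was -0.28. Members past the rule were then 29 downward in Treg-like, 2 downward in NK-like, 1 upward and 5 downward in monocyte/macrophage-like, and 1 upward and 21 downward in cDC-like cells. In CD8 T-like cells this gate gave -0.048 for the summed G2 and mitosis list and -0.038 for it in dividing cells.

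Without cells that held 2 markers of another lineage, the monocyte/macrophage-like share ratio was -1.62, the G2 and mitosis medians were 0.15 (Treg-like), -0.82 (NK-like) and -0.80 (monocyte/macrophage-like), and members past the rule were 1 upward and 7 downward in Treg-like and 17 downward in NK-like cells. In CD8 T-like cells the summed S list was 0.26, that in dividing cells 0.21, the G2 and mitosis list in dividing cells -0.10 and the histones in dividing cells -0.99. Without the highest Scrublet scores, the G2 and mitosis median was -1.11 in NK-like cells, with 21 members downward, and -0.82 in monocyte/macrophage-like cells; in CD8 T-like cells the summed G2 and mitosis list was -0.048 and the histones -0.92.

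With 1 marker more, 2 members were upward in NK-like cells. Equal weight per cell gave medians of -0.84 and -1.02 for the lists in monocyte/macrophage-like cells and -0.075 for the summed G2 and mitosis list of CD8 T-like cells. TMM scaling gave 0.15 and -0.061 for the summed lists of CD8 T-like cells, and CPM without mitochondrial and ribosomal protein genes gave 0.14 and -0.071. A limit of 5 UMIs gave a share ratio of 0.49 in NK-like cells. A limit of 2 UMIs gave -0.029 for the G2 and mitosis list in dividing CD8 T-like cells and -0.92 for their histones. Thinning to 1000 UMIs gave -1.34 for the cDC-like share and -0.93 for the CD8 T-like histones, thinning to 4000 UMIs 0.16 and -0.055 for the lists in dividing CD8 T-like cells, and another seed 0.16 and -0.056. Subset shares of the control library, an alternative chosen after the data had been seen, gave a monocyte/macrophage-like share ratio of -0.31. Others were chosen likewise, a wider cDC gate and a limit of 6 UMIs for members in dividing cells. The number of cells, not their depth, is small in the cDC-like class, with 189 and 77 after thinning.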
